A study of Mus musculus with 10 samples.

Results

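The genes described here carry glutamate and its precursor glutamine into their compartments or convert them into each other. The rule took 9 genes by symbol from the 25006 genes listed for every neuron. They are the vesicular glutamate transporters Slc17a6, Slc17a7 and Slc17a8, the glutamine carriers Slc38a1 and Slc38a2, and the enzyme genes Glul, Glud1, Got1 and Got2. Each identifier was matched to its symbol, and all 9 had at least 1 read in some neuron.

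A glutamatergic neuron fills its synaptic vesicles through a vesicular glutamate transporter, and the presence of such a transporter is the usual test of whether a neuron can release glutamate. Released glutamate is taken up mostly by astrocytes, where glutamine synthetase turns it into glutamine. Glutamine is passed back to neurons through system A carriers of the SLC38 family and is turned into glutamate again there. Glutamate also exchanges nitrogen and carbon with the citric acid cycle through glutamate dehydrogenase and the aspartate aminotransferases. The aspartate aminotransferases and malate dehydrogenases are the enzymes of the malate-aspartate shuttle.

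The RNA came from individually aspirated neurons of the NTS (nucleus of the solitary tract, the hindbrain relay for signals from the gut and other viscera), taken with a glass pipette from slices of the brainstem of C57BL/6 mice of 3 months. The mice were LepRb-Cre; Halo-eYFP transgenics, in which a Cre driven from the leptin receptor gene switches on a yellow fluorescent protein, and all 10 neurons carried this genotype. Such a reporter stays on in a cell that used the driver at any earlier time. Each library held the nuclear and cytoplasmic RNA of 1 neuron. Firing property divided the neurons into 5 of type 1 (1-1, 1-2, 4-3, 8-2 and 9-1) and 5 of type 2 (6-2, 10-1, 10-3, 9-2 and 9-4), and the question is how the levels of these genes compare between the firing types. No animal is named for any neuron, so each type is 1 sample, values are given per neuron, SDs describe spread between cells, and no test between the types was made.

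Libraries held 9796799 to 41844825 gene counts, with 4 below 20000000 counts (3 of type 1 and 1 of type 2) and 6 above (2 and 4). Levels are in CPM, a gene's share of its library's counts on a common scale, and detection means at least 3 counts and no less than 10 CPM. Neuronal markers were present throughout, with 7 to 10 of 10 detected in every library. Lepr, the leptin receptor gene itself, was detected in 2 type 1 and 4 type 2 neurons and had reads in all 10. Microglial markers summed to 492 to 1786 CPM in 6-2, 9-2 and 9-4 and to 804 CPM in 1-2, against at most 59.4 CPM in the other 6 neurons. Among the 2430 genes averaging 100 CPM or more, between 1.73% (8-2) and 10.6% (1-1) lay below 1 CPM in a given library. A gene that is high elsewhere can thus be nearly missing from 1 neuron. The share was 10.6, 6.05, 8.44, 1.73 and 6.58% in type 1 neurons 1-1, 1-2, 4-3, 8-2 and 9-1. For type 2 neurons 6-2, 10-1, 10-3, 9-2 and 9-4 it was 2.06, 4.24, 5.14, 2.88 and 2.02%. The part of this unevenness in the differences between the types was not tested.

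Slc17a6 was the vesicular glutamate transporter gene of these neurons, and its close relatives were almost absent. Slc17a6 (ENSMUSG00000030500; GRCm38 chromosome 7, 51622006 to 51671119, plus strand) encodes VGLUT2, the transporter typical of brainstem and other subcortical glutamatergic neurons. In type 1 neurons it was at 546 CPM in 1-1, 182 CPM in 1-2, 191 CPM in 4-3, 619.8 CPM in 8-2 and 519 CPM in 9-1. In type 2 neurons it was at 266 CPM in 6-2, 90.6 CPM in 10-1, 370.3 CPM in 10-3, 180.3 CPM in 9-2 and 196 CPM in 9-4. The ranges overlapped, but 3 type 1 neurons lay above every type 2 neuron and 2 type 2 neurons lay below every type 1 neuron. Of these 2, 9-2 (exact Poisson 95% interval 175 to 185 CPM) lay within counting error of 1-2 (175 to 189 CPM). How many of all genes show such an order was not counted. Detection in 10 of 10 neurons (exact binomial 95% interval 69.2 to 100%) compares with 14.2% of the 11923 genes averaging 1 CPM or more, and 4 of the 9 genes (Slc17a6, Slc38a2, Glud1 and Got1) were detected in every neuron.

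Slc17a6 averaged 412 ± 209 CPM over the type 1 neurons and 221 ± 104 CPM over the type 2 neurons (SD, n = 5). Summed over a type's libraries the level was 490 CPM (exact Poisson 95% interval 486 to 494) against 211 CPM (209 to 214), where the intervals hold for counting error alone, because reads without molecular identifiers need not be separate molecules. The difference of mean log2(CPM + 1), type 2 minus type 1, was -0.85, short of 2-fold, where the median over the 11923 genes was 0.24. In the 6 libraries above 20000000 counts the difference was -1.61, and it was -1.46 among 9-1, 9-2 and 9-4. These share a first number, the only one found in both types, whose meaning the sources used here do not give. In the 4 libraries below 20000000 counts it was -0.01, with 6-2 as the sole type 2 neuron there. Without 6-2, 9-2 and 9-4, the type 2 neurons with most microglial reads, it was -0.97.

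Slc17a7 (ENSMUSG00000070570; chromosome 7, 45163949 to 45176142, plus strand) encodes VGLUT1, the main transporter of cortical excitatory neurons. It had 0 counts in 9 neurons and 3 counts in 9-4 (0.0954 CPM). A count of 0 allows, as far as depth goes, up to 0.0882 CPM (8-2, the largest library) or 0.377 CPM (4-3, the smallest), the upper ends of exact Poisson 95% intervals. Slc17a8 (ENSMUSG00000019935; chromosome 10, 89574020 to 89621253, minus strand) encodes VGLUT3, which is found in some neurons that release another transmitter as well. It reached 4.76 CPM in 10-1 (198 counts) and 0.127 CPM in 9-1 (4 counts), with 0 counts in the other 8 neurons. Both genes stayed below the detection level in all 10 neurons (0 of 10, exact binomial 95% interval 0 to 30.8%). The type 2 neuron 10-1, which held nearly all Slc17a8 reads, also had the lowest Slc17a6 level of the 10. Even there Slc17a6 was 16.6 times Slc17a8 per kilobase of exon. No 50-base stretch of a Slc17a6 or Slc17a7 transcript occurs in a transcript of another gene in GENCODE M21, so reads of these genes are not shared through identical sequence of that length. Slc17a8 does share such stretches with many genes, at most 0.643% of its own with any 1 of them (Olfr981, which had 0 counts) and 0.6% with Pgm2l1, which had 21364 counts, so its few reads are uncertain.

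**Figure D1:**
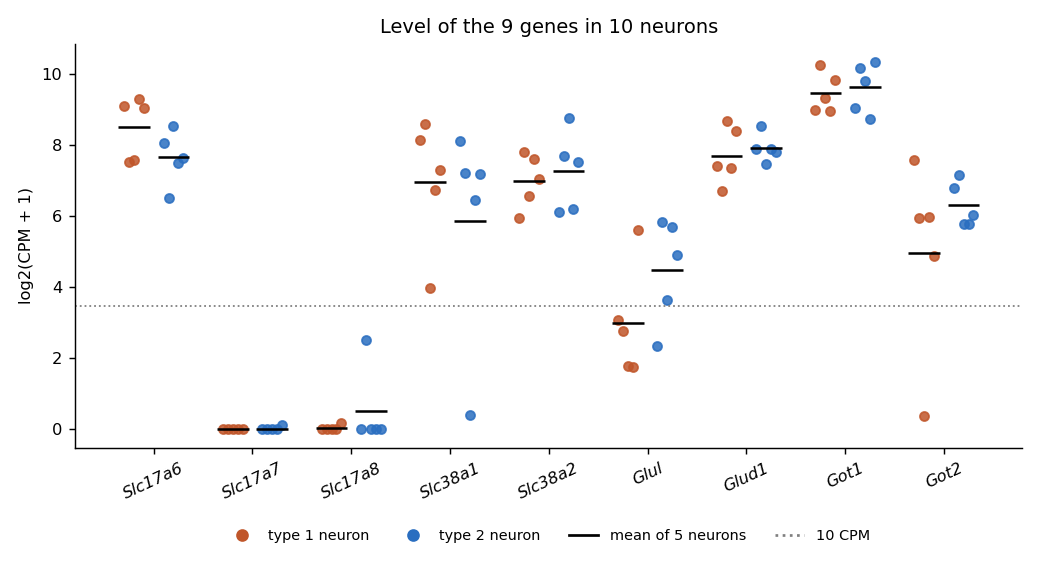
Level of each of the 9 genes as log2(CPM + 1) in the 5 type 1 and 5 type 2 neurons, 1 point per neuron, with a bar at the mean of each type and a dotted line at 10 CPM. Slc17a6, Slc38a2, Glud1 and Got1 lie above the line in all 10 neurons, Slc17a7 and Slc17a8 lie below it in all 10, and Slc38a1 and Got2 each have 1 neuron near 0.

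The vesicular glutamate transporter gene was found together with a GABA-synthesis gene in most neurons. Gad2, which encodes a glutamate decarboxylase that makes GABA from glutamate, was detected alongside Slc17a6 in 2 type 1 and 5 type 2 neurons. Slc32a1, the vesicular GABA transporter gene, was detected in 4-3 at 11.9 CPM and in no other neuron. Per kilobase of exon, Slc17a6 exceeded Gad2 in 5 neurons (1-1, 1-2, 8-2, 9-1 and 10-3) and Gad2 exceeded Slc17a6 in the other 5. The Slc17a6 to Gad2 ratio was 533 in 8-2 and 394 in 9-1, 1.23 in 1-1 and 0.624 in 4-3. Among type 2 neurons it was 0.282 in 9-4, 0.352 in 9-2, 0.401 in 10-1, 0.555 in 6-2 and 1.8 in 10-3. Neuron 1-2 had no Gad2 read. Thus 4 of 5 type 1 neurons and 1 of 5 type 2 neurons had more Slc17a6 than Gad2 per kilobase.

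**Figure D2:**
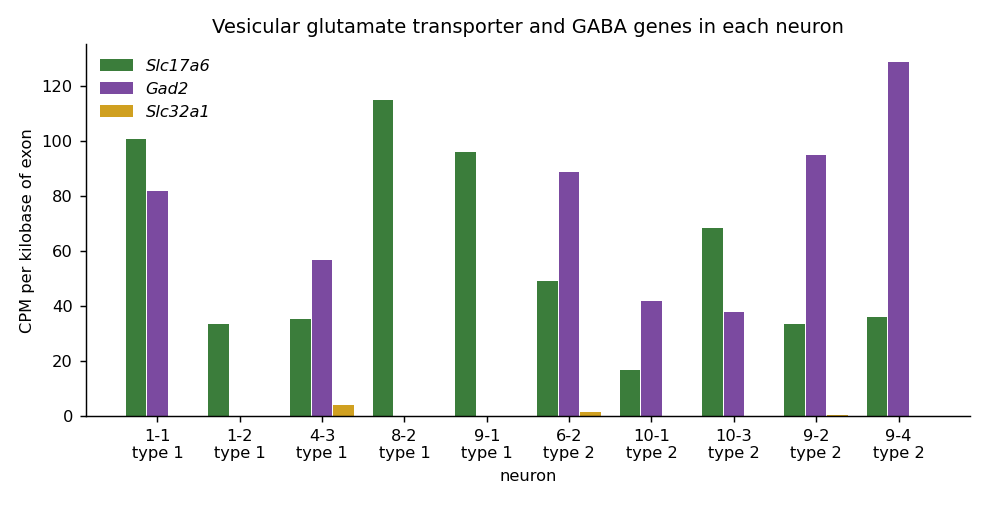
CPM per kilobase of exon for Slc17a6, Gad2 and Slc32a1 in each neuron, as bars from 0. Gad2 is taller than Slc17a6 in 4-3, 6-2, 10-1, 9-2 and 9-4, and Slc32a1 is at or near 0 in every neuron except 4-3 and 6-2, where it reached 11.9 and 4.59 CPM before division by length.

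The system A glutamine carriers were both expressed, and the SD of log2(CPM + 1) over the 10 neurons was 2.46 for Slc38a1 and 0.91 for Slc38a2. The genes lie next to each other in the same orientation on the minus strand of chromosome 15, Slc38a1 (ENSMUSG00000023169) at 96571418 to 96642913 and Slc38a2 (ENSMUSG00000022462) at 96687392 to 96699730. In type 1 neurons Slc38a1 was at 283 CPM in 1-1, 385 CPM in 1-2, 14.8 CPM in 4-3, 105 CPM in 8-2 and 157 CPM in 9-1. In type 2 neurons it was at 274 CPM in 6-2, 148 CPM in 10-1, 0.331 CPM in 10-3 (12 counts), 86.5 CPM in 9-2 and 143 CPM in 9-4. Neurons 4-3 and 10-3 stood below the rest, 1 of each type, and the other 8 neurons spanned 86.5 to 385 CPM with overlapping types.

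On the log2(CPM + 1) scale Slc38a1 averaged 6.95 ± 1.81 over type 1 and 5.87 ± 3.11 over type 2 neurons (SD, n = 5), a difference of -1.08. That difference was 0.29 without 10-3 and -1.82 without 4-3, so it changed sign without the former and grew without the latter. The difference without both was not computed. It was -1.70 in the libraries above 20000000 counts, 1.20 in those below, -0.49 in neurons numbered 9 and -3.13 without 6-2, 9-2 and 9-4.

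Slc38a2, whose transcript is induced when cells lack amino acids, was at 60.4 CPM in 1-1, 219.6 CPM in 1-2, 93.5 CPM in 4-3, 195 CPM in 8-2 and 131 CPM in 9-1. In type 2 it was at 68.1 CPM in 6-2, 206 CPM in 10-1, 435 CPM in 10-3, 71.8 CPM in 9-2 and 184 CPM in 9-4. The types overlapped, and the log2 difference was 0.27, with -0.19 in neurons numbered 9, 0.22 in the libraries above 20000000 counts, -0.65 in those below and -0.11 without 10-3. Neuron 10-3, the lowest in Slc38a1, was the highest in Slc38a2. Summed over both carriers, 10-3 had 435 CPM and 4-3 had 108 CPM, the lowest of the 10, and the other 8 neurons had 158 to 605 CPM. Across the 10 neurons the levels of the carriers had Pearson r = -0.49 and Spearman rho = -0.24, a description of 10 libraries in which 10-3 lies far from the rest. Per kilobase of exon Slc38a2 was above Slc38a1 in 8 neurons, and in 7 when the longest protein-coding transcript was taken as the length.

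**Figure D3:**
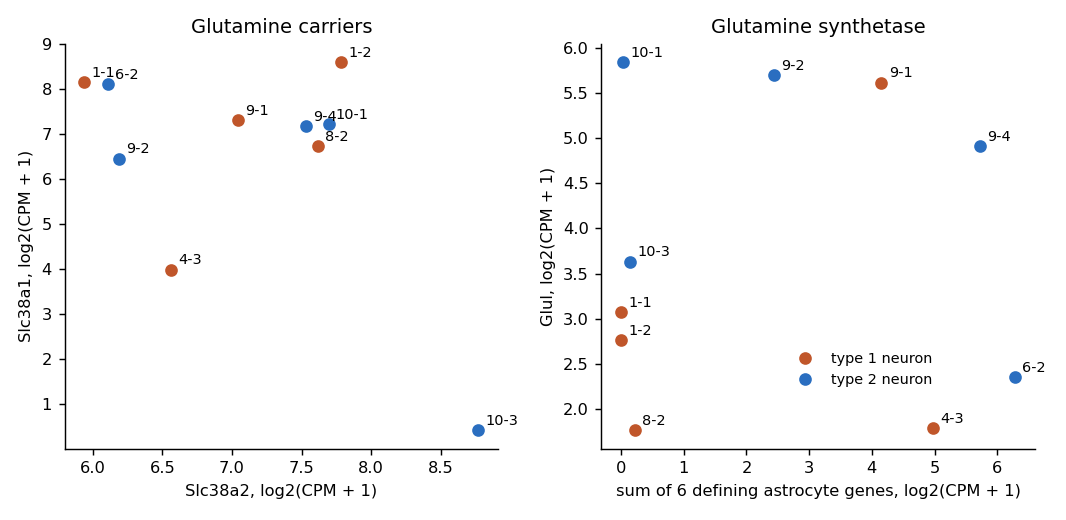
Left, Slc38a1 (vertical) against Slc38a2 (horizontal), and right, Glul (vertical) against the summed level (horizontal) of 6 defining astrocyte genes, all as log2(CPM + 1), 1 labelled point per neuron coloured by type. Neuron 10-3 has the highest Slc38a2 and the lowest Slc38a1 level, and 10-1, with the highest Glul level, has almost none of the astrocyte genes while 6-2, with the most of them, has 4.1 CPM of Glul.

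Glul, the glutamine synthetase gene, was low in these neurons, and 4 of the 5 neurons in which it was detected were of type 2. All 5 had a first number of 9 or 10 and a library above 20000000 counts. The other 5 neurons had first numbers of 1, 4, 6 or 8. Among them was 8-2, the largest library, with the lowest Glul level of the 10 neurons (2.39 CPM). The parts of first number and library size in this pattern were not tested. Glul (ENSMUSG00000026473; chromosome 1, 153899944 to 153909723, plus strand) is best known as an astrocyte gene. It was at 7.41 CPM in 1-1, 5.77 CPM in 1-2, 2.45 CPM in 4-3, 2.39 CPM in 8-2 and 48.0 CPM in 9-1. In type 2 it was at 4.1 CPM in 6-2, 56.3 CPM in 10-1, 11.4 CPM in 10-3, 51.0 CPM in 9-2 and 29.1 CPM in 9-4. It was thus detected in 1 type 1 neuron (20%, exact binomial 95% interval 0.505 to 71.6%) and 4 type 2 neurons (80%, 28.4 to 99.5%), and had reads in all 10. These intervals take the 5 neurons of a type as independent, which is not known, so they do not compare the types. The types overlapped because 9-1 was as high as the upper type 2 neurons and 6-2 as low as the type 1 neurons.

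Glul averaged 13.2 ± 19.6 CPM over type 1 and 30.4 ± 23.2 CPM over type 2 neurons (SD, n = 5), a log2 difference of 1.49. It was 1.33 in the libraries above 20000000 counts, -0.19 in those below and -0.31 among neurons numbered 9, and 1.15 to 2.14 with any 1 neuron left out. Of 14 astrocyte markers 6 were detected in some neuron. Summed over the 14, the level was 149.8 to 673 CPM in type 1 and 1046 to 1775 CPM in type 2, and Aldoc, detected in all 10 neurons, made up 147 to 623 and 856 to 1775 CPM of it. The part of these reads in the Glul levels was not tested. Of the 6 defining astrocyte genes, Slc1a3 had 0 counts in all 10 neurons and Aqp4 and Gja1 were undetected in all 10, while Gfap, Slc1a2 and Aldh1l1 were detected in 1 or 2 neurons each. In 10-1, the neuron with most Glul, 5 of these 6 genes had 0 counts and their sum was 0.024 CPM. In 6-2 their sum was highest, at 76.8 CPM, with Glul at 4.1 CPM. Over the 10 neurons Glul and this sum had Pearson r = 0.01 and Spearman rho = -0.13, while Glul and the sum of all 14 markers had r = 0.55 and rho = 0.67. Glul and library total had r = 0.58 and rho = 0.33. These values describe 10 single libraries. Of the 50-base stretches in Glul transcripts, 9.46% also occur in the pseudogene Glns-ps1, and how such reads were counted is not given in the sources used here.

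Glud1 and Got1 varied least across neurons of the 7 genes averaging 1 CPM or more, and Got1 had the highest level per kilobase of the 9 genes in every neuron. Glud1 (ENSMUSG00000021794; chromosome 14, 34310727 to 34345265, plus strand) encodes mitochondrial glutamate dehydrogenase, which turns glutamate into 2-oxoglutarate. It was at 168, 103, 406, 161 and 334 CPM in 1-1, 1-2, 4-3, 8-2 and 9-1, and at 236, 366, 175, 233 and 222 CPM in 6-2, 10-1, 10-3, 9-2 and 9-4. All type 2 values lay inside the type 1 range, and the log2 difference was 0.21. Got1 (ENSMUSG00000025190; chromosome 19, 43499752 to 43524605, minus strand) encodes the cytosolic aspartate aminotransferase. Its levels were 503, 1205, 643, 497 and 907 CPM in the same order of type 1 neurons, and 529, 1152, 888, 425 and 1277 CPM in type 2. These ranges overlapped almost fully, with averages of 751 ± 303 and 854 ± 374 CPM (SD, n = 5) and a log2 difference of 0.15. The SD of log2(CPM + 1) over the 10 neurons was 0.61 for Glud1 and 0.60 for Got1. Of the 2430 genes averaging 100 CPM or more, 14.9% and 14.2% had a smaller SD than these, and the median SD was 1.17.

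Got2, the mitochondrial partner of Got1 (ENSMUSG00000031672; chromosome 8, 95864134 to 95888547, minus strand), was lower and less even. It was at 189 CPM in 1-1, 61.0 CPM in 1-2, 0.306 CPM in 4-3 (3 counts), 62.2 CPM in 8-2 and 28.1 CPM in 9-1, against 109, 140.2, 53.9, 53.6 and 64.2 CPM in 6-2, 10-1, 10-3, 9-2 and 9-4. All 5 type 2 values lay within the type 1 range, whose ends were 4-3 and 1-1. The log2 difference was 1.35, and 0.21 without 4-3. It was 0.76 in the libraries above 20000000 counts, 2.15 in those below, where 4-3 lies, and 1.04 in neurons numbered 9. Got1 exceeded Got2 per kilobase of exon in 10 of 10 neurons, by 5.07 times in 1-1 to 61.4 times in 9-1 over the 9 neurons with more than 3 Got2 counts. Of the 50-base stretches in Got2 transcripts, 16.8% also occur in the pseudogene Got2-ps1, so its level is uncertain to the extent that reads matching both were dropped or split.

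Levels of different genes can be compared per kilobase of exon, if reads fall evenly along transcripts, which the sources used here do not show. On that scale Got1 averaged 316 ± 128 (SD, n = 10 neurons), Slc17a6 58.5 ± 34.3, Glud1 57.1 ± 23.4, Slc38a2 18.8 ± 12.7, Got2 15.8 ± 11.5, Slc38a1 9.27 ± 7.09 and Glul 6.56 ± 6.67 CPM per kilobase. Got1 was above Slc17a6 in all 10 neurons, whereas Slc17a6 was above Glud1 in 5 of 10, Slc38a2 above Got2 in 6 of 10 and Slc38a1 above Glul in 5 of 10, so these neighbours were not apart beyond their spread. Among the 11923 genes averaging 1 CPM or more, Got1 stood at percentile 99.0 of the per-kilobase level, Slc17a6 at 91.2, Glud1 at 90.9, Slc38a2 at 74.3, Got2 at 70.4, Slc38a1 at 57.9 and Glul at 49.3.

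Across the firing types, 3 of the 9 genes lay at least 2-fold apart and none had separate ranges. Of the 9, 7 averaged 1 CPM or more over the 10 neurons, and Slc17a7 and Slc17a8 did not. The mean log2 level was higher in type 2 for 5 of the 7 and in type 1 for 2, against 56.2% and 43.8% of all 11923 genes. A 2-fold difference in either direction was reached by 3 of the 7 genes, or 42.9% (Glul and Got2 higher in type 2, Slc38a1 higher in type 1). Of all 11923 genes 52.7% reached it, 31.1% towards type 2 and 21.6% towards type 1. None of the 9 had types whose ranges did not overlap, a pattern found in 2.03% of all genes, 1.44% with type 2 above and 0.587% with type 1 above. The median difference of the 7 was 0.21, against 0.24 for all genes. Scaling by TMM moved the median of all genes by 0.15 and scaling by DESeq2 size factors by 0.13. Slc38a1 was then at -0.90 and -0.96, short of 2-fold. Relative to the median of all genes Slc17a6 was at -1.09, Slc38a1 at -1.32, Glul at 1.24 and Got2 at 1.11.

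**Figure D4:**
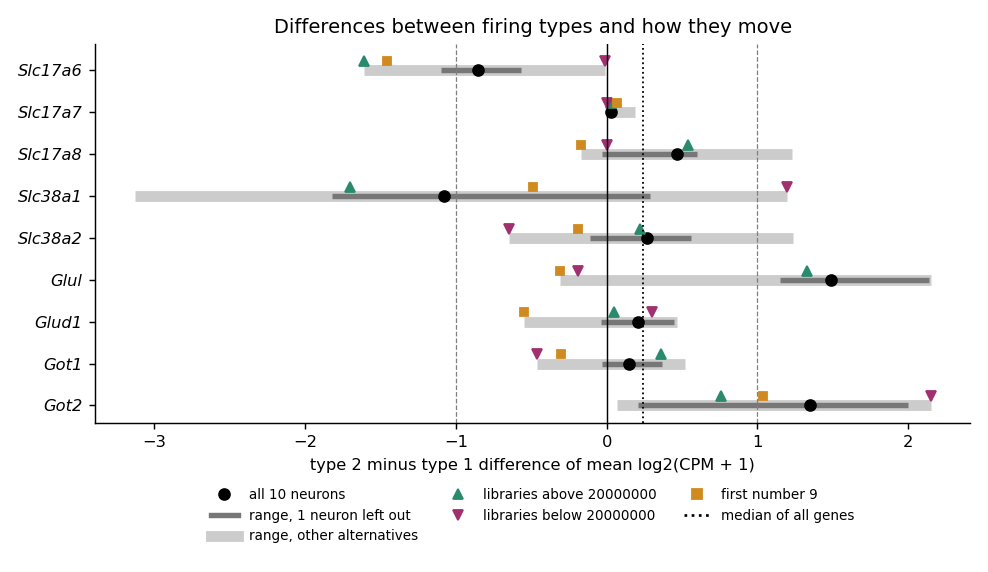
Mean log2(CPM + 1) of type 2 minus that of type 1 for each of the 9 genes (black points), with the range when 1 neuron is left out (dark bars), the range over the other alternatives (light bars), values in libraries above and below 20000000 counts and in neurons numbered 9 (symbols), dashed lines at 2-fold, and the median of all genes, 0.24 (dotted). The difference of Slc17a6 spans -1.61 to -0.01, all below 0, and that of Got2 spans 0.07 to 2.15, all above 0. Those of Slc17a8, Slc38a1, Slc38a2, Glul, Glud1 and Got1 lie on both sides of 0.

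Other genes of glutamate and glutamine handling lay in both directions, with Gad2 and Gls2 furthest out. A list of 40 such genes, without the 9, had 31 averaging 1 CPM or more, of which 13 were at least 2-fold higher in type 2 and 7 at least 2-fold higher in type 1 (31.1% and 21.6% of all genes, as above). The list's median difference was 0.71, against 0.24 for all genes. It was 0.17 in the libraries above 20000000 counts, 0.83 in those below and 0.07 among neurons numbered 9. The median of all genes was 0.00, 0.33 and 0.09 there, so among neurons numbered 9 the list did not lie above it. The microglial markers named above were also higher in type 2, all 12 by mean, and their part in these values was not tested, beyond a list median of 0.54 without 6-2, 9-2 and 9-4 (-0.01 for all genes).

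Gls2, whose product, the liver-type glutaminase, makes glutamate from glutamine, had the higher mean in type 1. It was at 143, 80.1, 99.6, 48.8 and 91.0 CPM in 1-1, 1-2, 4-3, 8-2 and 9-1, and at 0.902, 0.0481, 0.387, 72.0 and 3.98 CPM in 6-2, 10-1, 10-3, 9-2 and 9-4. It was detected in every type 1 neuron and, among type 2 neurons, in 9-2, whose level kept the ranges from separating. The log2 difference was -4.47, and it was -5.52 without 9-2, -3.82 in the libraries above 20000000 counts, -5.79 in those below and -2.27 in neurons numbered 9. Gls2 shares 97 exon bases with Spryd4 on the opposite strand, a gene with 3043 counts in all libraries together.

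Plasma membrane uptake genes were low. Slc1a3, the astrocyte transporter GLAST, had 0 counts in all 10 neurons, and Slc1a2, the main astrocyte transporter GLT-1, was detected in 4-3 at 30.6 CPM and in 6-2 at 20.7 CPM. Slc1a1, the neuronal transporter EAAC1, averaged 34.9 ± 35.8 CPM over type 1, with 3 neurons detected, and 8.51 ± 11.1 CPM over type 2, with 2 detected. The difference of -1.36 was -0.65 without 9-1, -2.23 without 4-3 and 0.26 in the libraries below 20000000 counts.

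Among carriers, Slc3a2, the heavy chain shared by several amino acid exchangers, averaged 129 ± 158 CPM over type 1, with 3 neurons detected, and 221 ± 127 CPM over type 2, with 5 detected. Its difference of 2.95 rests on values of 0 in 4-3 and 0.478 CPM in 9-1, and it was 0.38 when each type was summarised by its median neuron. Slc7a8, a light chain of those exchangers, was detected in 9-1 at 92.2 CPM and in 4 type 2 neurons at 11.2 to 47.8 CPM. Its difference was 1.90, 3.06 without 9-1 and -0.96 in neurons numbered 9. Slc17a5, the lysosomal sialic acid carrier of the SLC17 family, was detected in 1 and 3 neurons. Its difference of 2.17 was 0.30 in the libraries above 20000000 counts, 1.57 without 10-1 and 3.07 without 8-2. Slc25a22, a mitochondrial glutamate carrier, was at 353, 17.2, 134, 111 and 139 CPM in type 1 and at 128, 609, 322, 409.6 and 398 CPM in type 2, above the detection level throughout. In 4 of 5 type 2 neurons it exceeded the 4 lower type 1 neurons, and the difference was 1.65, or 0.43 in the libraries below 20000000 counts.

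Enzyme genes around glutamate went in both directions. Mdh1, the cytosolic malate dehydrogenase of the malate-aspartate shuttle, was the 1 gene of the 31 whose types did not overlap, a pattern with type 2 above in 1.44% of all genes, and it is named here because of that. It was at 1725, 1769, 985, 1348 and 1849 CPM in type 1 and at 2571, 3531, 2751, 2871 and 2841 CPM in type 2, averaging 1535 ± 363 and 2913 ± 364 CPM (SD, n = 5). The difference of 0.95 was 0.80 to 1.03 with any 1 neuron left out, 0.92 in the libraries above 20000000 counts, 0.83 in those below and 0.63 in neurons numbered 9. Mdh1 shares 52 exon bases with Wdpcp on the opposite strand, which had 10438 counts in all. Its partners in the shuttle, Got1 and Got2, overlapped between types, as given above.

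Oat, ornithine aminotransferase, was detected in 4 and 5 neurons (106 ± 72.2 against 236 ± 141 CPM), and its difference of 2.07 was 0.67 without 4-3, where it had 0 counts. Gclm, the modifier subunit of the enzyme that starts glutathione synthesis, was detected in 4 and 5 neurons at 57.5 ± 72.1 against 109 ± 29.0 CPM, with a difference of 2.17 that was 1.14 without 9-1. Gpt2, the mitochondrial alanine aminotransferase, was detected in 3 type 1 neurons and in 10-1 (difference -2.62, -1.62 without 1-2 and 0.74 in neurons numbered 9). Gfpt1, which uses glutamine to make hexosamine, averaged 28.7 ± 17.3 CPM over type 1, with 5 neurons detected, and 12 ± 12.6 CPM over type 2, with 2 detected (difference -1.79, -1.10 without 10-1, -0.70 in the libraries above 20000000 counts and -0.10 in neurons numbered 9). Aldh4a1, the last enzyme from proline to glutamate, was detected in 2 and 3 neurons, with a difference of 1.81 that was 2.77 without 9-2, 1.15 without 6-2 and -4.14 in neurons numbered 9. Gad1, the other GABA-synthesis gene, was detected in 6-2 at 31.5 CPM. Gad2 had the largest difference of the list, 4.74 (163 ± 229 against 461 ± 225 CPM), with 3 type 1 neurons at or below 1.43 CPM. It was 1.49 as a log2 ratio of mean CPM, 3.76 to 5.98 with 1 neuron left out, 8.06 in neurons numbered 9 and 3.26 in the libraries below 20000000 counts.

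**Figure D5:**
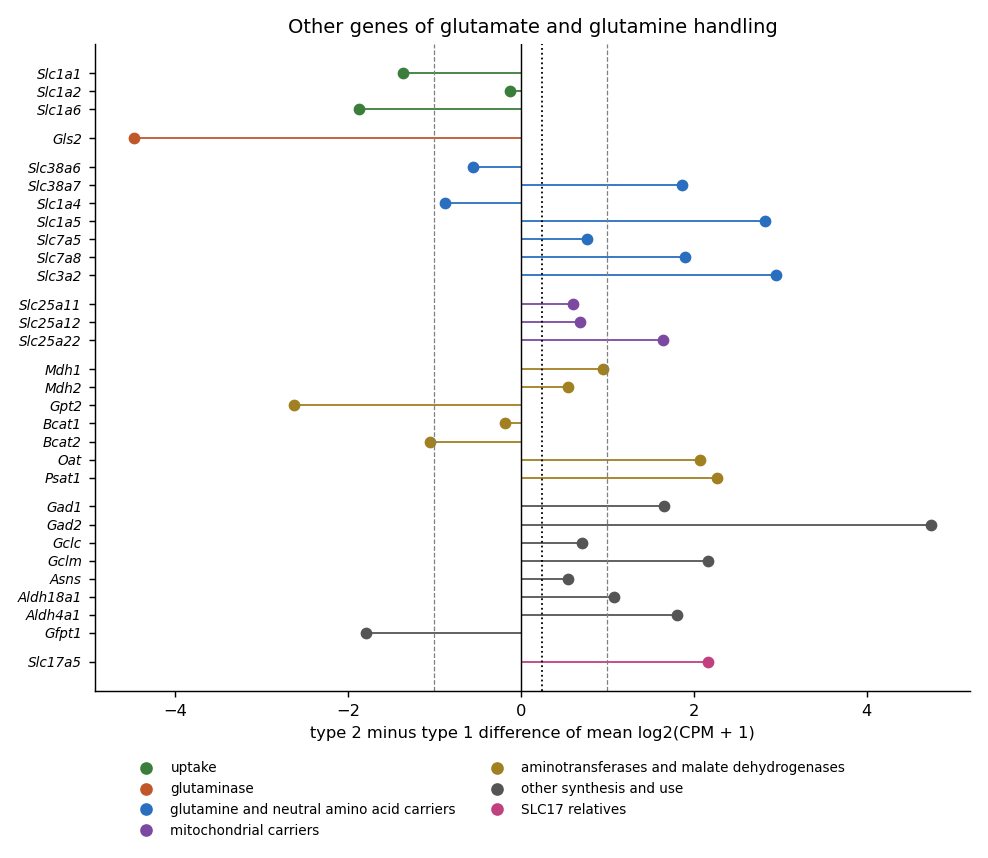
Mean log2(CPM + 1) of type 2 minus that of type 1 for 30 of the 31 listed genes averaging 1 CPM or more, grouped and coloured by role, with dashed lines at 2-fold and a dotted line at the median of all genes, 0.24. The 3 uptake genes lie left of 0, but in the libraries below 20000000 counts Slc1a1 was at 0.26 and Slc1a2 at 2.78. Slc1a2 was also at 0.82 without 4-3. All 3 mitochondrial carriers lie right of 0, but Slc25a11 was at -0.06 in neurons numbered 9 and Slc25a12 at 0.06 without 9-1. Gad2 (4.74) and Gls2 (-4.47) lie furthest out.

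The genes whose levels over the 10 neurons were most like those of Slc17a6, among 6322 genes, were Clcc1 (Pearson r = 0.88), Rasgrf1 (0.86), Naa15 (0.85), Frmd3 (0.84) and Fam3c (0.84). All 5 had the higher mean log2 level in type 1, with differences of -0.52 to -1.43. Those most like Glul were Ywhag (0.91), Slc22a17 (0.85), Mecr (0.84), Mterf4 (0.84) and Nfe2l1 (0.83), each with the higher mean in type 2. With 10 neurons and this many genes, values of this size describe these libraries and are not evidence of a relation.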

How the data were processed

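RNA of 10 single neurons was measured, with 1 library per neuron and 5 neurons per firing type. The files the authors deposited give raw counts for each gene, as their headers and whole-number values show. Per the submitters' processing notes, cutadapt 1.13, STAR, HTSeq 0.6.1p1 and DESeq2 were used with the mm10 build; their order, the annotation, the strand setting and any amplification are given by no source used here. Library totals were 9796799 to 41844825, and each of the 45 pairs of libraries differed beyond counting noise (chi-square divided by its degrees of freedom was at least 634).

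CPM was computed from summed gene counts, levels as log2(CPM + 1) and differences as type 2 minus type 1 means, with Python 3.11.15, pandas 2.3.3 and scipy 1.17.1. TMM (edgeR 4.0.16) and DESeq2 1.42.0 size factors were alternatives. Symbols matched 24942 of 25006 identifiers and exon lengths from GENCODE M21 (GRCm38) 24991. None of the 9 genes shares exon bases with another counted gene.

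The 9 genes, the list of 40 and the alternatives were chosen with earlier results of these data known. Besides the 9, the text names the 12 listed genes furthest from 0 that were detected in 3 or more neurons of the higher type, Slc1a2, Slc1a3, Gad1, Gad2, Slc32a1 and Lepr, and the 5 genes most correlated with Slc17a6 and with Glul among genes of at least 10 CPM detected in at least 5 neurons, leaving out unnamed, predicted, mitochondrial, ribosomal protein and pseudogene entries. 1 listed gene is counted but not reported here. Mdh1, Aldoc, Slc25a11, Slc25a12 and Slc25a13 were named after their values were seen. Binomial and Poisson intervals are exact. The binomial intervals take neurons as independent, which is not known because no animal is named. The computation was tested on simulated data.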

Additional observations from a re-analysis of the deposited data

Results flagged for a closer look

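In 6 of 41 sets of 5 neurons (the 9 genes and the 12 listed genes with the largest differences, each type apart), 1 neuron stood apart from the other 4 by Dixon's gap-to-range ratio of log2 levels, which chance exceeds in about 1 of 20 sets. In 3 of the 6, those of Slc17a7 and Slc17a8, the other 4 values were 0, so that any read gives the highest possible ratio and that rate does not apply. Nor need the rate hold for the 12 listed genes, which were chosen by their differences in these same data. Slc38a1 was low in the type 2 neuron 10-3, at 0.331 CPM, where the next lowest type 2 neuron had 86.5 CPM. Oat was at 0 in the type 1 neuron 4-3, where the next lowest had 83.7 CPM. Slc17a8 was at 4.76 CPM in the type 2 neuron 10-1 and at 0.127 CPM (4 counts) in the type 1 neuron 9-1, with 0 in the other 4 of each type. Slc17a7 was at 0.0954 CPM (3 counts, where a count of 0 allows up to 0.117 CPM) in the type 2 neuron 9-4 and at 0 in the other 4. Slc17a5 was at 23.4 CPM in the type 1 neuron 8-2 and at most 0.287 CPM in the other type 1 neurons. Of the 2430 genes averaging 100 CPM or more, 8.44% lay below 1 CPM in 4-3 and 5.14% in 10-3.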

How the results depend on the processing

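The Slc17a6 difference was -0.85 and kept its sign in all 23 alternatives, from -1.10 to -0.57 with 1 neuron left out. In the libraries below 20000000 counts it was -0.01. The Got2 difference of 1.35 also kept its sign in all 23, from 0.07 to 2.15. How many of all genes keep their sign was not counted. The count of genes at least 2-fold apart was 3, where 52.7% of all genes were. It was 0 with a pseudocount of 10 CPM (24% of all genes), 1 with the ratio of mean CPM (50.1%) and 5 without 6-2, 9-2 and 9-4 (61%), and 2 or 3 with 1 neuron left out. The percentages cover genes averaging 1 CPM or more, and the 5 include Slc17a8 (1.23), which averaged less. Glul changed sign in neurons numbered 9 (-0.31) and in the libraries below 20000000 counts (-0.19). Slc38a1 changed sign in the latter (1.20) and spanned -1.82 (without 4-3) to 0.29 (without 10-3) with 1 neuron left out. The list's median of 0.71 stayed positive, from 0.57 to 0.91 with 1 neuron left out. It was as low as 0.07 in neurons numbered 9, where the median of all genes was 0.09. With the log2 ratio of mean CPM it was 0.34 (-0.05 for all genes). With each type summarised by its median neuron it was 0.38 (0.01 for all genes). The causes were not tested. At 1 CPM Glul counted as detected in 10 neurons and at 50 CPM in 2, and Slc17a8 at 1 CPM in 1. Lengths from the longest protein-coding transcript were chosen after seeing the data. No paired analysis was possible because no animal is named for any neuron. Whether first number 9, found in both types, ties those neurons together is not known. Depth limits what a 0 means to at most 0.377 CPM, the exact Poisson upper end in 4-3. This limit does not count transcripts lost earlier.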

Other observations

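Over the 36 pairs of the 9 genes, the highest Pearson correlation of log2(CPM + 1) across the 10 neurons was 0.67 for Got1 and Slc38a2 (Spearman rho = 0.55), and the lowest was -0.59 for Slc17a6 and Slc17a8 (rho = -0.23), which rests on the Slc17a8 reads of 10-1. All 10 points of each pair share their library and its depth. Got1 and Got2, the cytosolic and mitochondrial forms of the same enzyme, had r = 0.04 and rho = 0.05. Slc25a12, the aspartate-glutamate carrier of the malate-aspartate shuttle, was detected in all 10 neurons, at 39.1 to 629 CPM, while its relative Slc25a13 had at most 0.164 CPM. These genes were chosen after their values were seen.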
